A study of Mus musculus with 14 samples.

Results

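The Clec genes encode cell-surface and secreted proteins with a C-type lectin-like domain, and in mouse marrow cells many of them are receptors of monocytes, neutrophils, dendritic cells and platelets. Members were the probe sets of the deposited array table whose platform symbol is Clec followed by a digit, with 1 probe set for each symbol. This gave 32 members among 22206 probe sets tested. They are described here across 14 arrays in 6 groups. The values that chose the members were names alone, so every measurement below is independent of the choice of symbols, although the family was picked with knowledge of earlier results.

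The cells were lineage-negative bone marrow cells of mice, called hematopoietic progenitor cells (HPCs) by the labels, enriched on an autoMACS magnetic separator. They came from mice with wild-type Polg (WT, Polg wt/wt), with 1 mutant allele (Het, Polg wt/mut) or with only mutant alleles (Hom, Polg mut/mut). Polg encodes the enzyme subunit that synthesises mitochondrial DNA. All cells spent 48 h in complete bone marrow medium and were then seeded on retronectin-coated plates loaded with retrovirus from GP+E86 packaging cells. The virus was MSCV-IRES-YFP (Ctrl), which carries yellow fluorescent protein alone, or MSCV-NMyc-IRES-YFP (NMyc), which adds the transcription factor N-Myc under a viral promoter. WT-Ctrl and Het-Ctrl had 3 arrays each. Hom-Ctrl and all NMyc groups (WT-NMyc, Het-NMyc, Hom-NMyc) had 2 each. The series asked which transcripts change with N-Myc and with the accumulation of somatic mitochondrial mutations. The labels call the arrays biological replicates and give neither age nor sex, nor whether mice were pooled, whether YFP-positive cells were sorted, or the time from transduction to RNA extraction.

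Expression is given in log2 units as deposited, and a difference of 1 is a change by a factor of 2. Between any 2 arrays the correlation over probe sets was 0.958 to 0.994. Mycn, the transduced gene, read 12.15 to 12.38 on the 6 NMyc arrays and 7.43 to 7.76 on 7 of the 8 Ctrl arrays. The library labelled Hom-Ctrl replicate 1 stood apart at 9.77, which goes against its vector label in part. Whether it was mislabelled or mixed with an NMyc sample was not tested, so a Hom-Ctrl value holds only as far as that label does. Which calls in the Hom-Ctrl comparisons were kept without this library is therefore given beside them. The endogenous Polg read 6.91 to 7.67 on all arrays. The sample codes in the labels fall into 3 runs. Every first Ctrl replicate lies in run 1. The second Ctrl replicates share run 2 with the first NMyc replicates, and the remaining WT-Ctrl, Het-Ctrl and NMyc arrays make up run 3. Nothing in the labels says that a run is a batch. The median of the positive control sets exceeded that of the negative ones by 3.60 to 4.17 on Ctrl arrays and by 4.04 to 4.52 on NMyc arrays. The part of this gap in the results was not tested.

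Clec receptors sense sugars, lipids and damaged self. Several activating members, among them Dectin-2 (Clec4n), Mincle (Clec4e) and MDL-1 (Clec5a), pair with a small adaptor chain, Fc receptor gamma (Fcer1g) or DAP12 (Tyrobp), that recruits the kinase Syk and, for Dectin-2 and Mincle, the Card9 relay to NF-kB. CLEC-2 (Clec1b) and DNGR-1 (Clec9a) instead carry a tyrosine motif in their own tail that engages Syk. Inhibitory members, such as DCIR (Clec4a2) and MICL (Clec12a), carry an inhibitory tyrosine motif that recruits phosphatases. The Clec2 proteins work the other way round: they sit on the target cell as ligands and are read by NK receptors of the Klrb1 family.

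Of the 32 members, 24 lie on chromosome 6, most of them in 2 neighbourhoods of the RefSeq gene order. In the first, Clec4a1, Clec4a3, Clec4a4, Clec4b1, Clec4a2, Clec4b2, Clec4n, Clec4d and Clec4e follow one another with no other protein-coding gene between them, and all 9 are members (the Clec4 block). In the second, which belongs to the NK gene complex, 12 members lie from Clec2h to Clec1a (the Clec2 to Clec1 block). The other 11 members lie elsewhere. RefSeq promoter windows, from 250 bases before to 50 after an annotated start (GRCm38.p6), were at hand for 25 members, in 27 windows. The 250 bases before the start are shown for 4 receptors to which the results return: Clec4d and Clec4e, neighbours in the Clec4 block that fell with N-Myc, Clec12a from the second block, and Clec5a, which did not fall. The stretches are chr6:123261857-123262106 (plus strand) for Clec4d, chr6:123289872-123290121 (minus strand) for Clec4e, chr6:129349994-129350243 (plus strand) for Clec12a and chr6:40585806-40586055 (minus strand) for Clec5a, each written 5′ to 3′ on the gene's strand. Capitals mark matches, on either strand, to TTGCGCAA or the looser TTNNGNAA (forms of the C/EBP site, which overlap each other). They also mark TGANTCA, a loose form of the AP-1 site that allows any middle base.
Clec4d: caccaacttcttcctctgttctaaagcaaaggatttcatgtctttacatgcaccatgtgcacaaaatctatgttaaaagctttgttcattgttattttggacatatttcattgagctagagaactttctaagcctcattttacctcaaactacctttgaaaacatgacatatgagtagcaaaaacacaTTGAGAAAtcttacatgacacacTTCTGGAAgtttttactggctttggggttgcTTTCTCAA
Clec4e: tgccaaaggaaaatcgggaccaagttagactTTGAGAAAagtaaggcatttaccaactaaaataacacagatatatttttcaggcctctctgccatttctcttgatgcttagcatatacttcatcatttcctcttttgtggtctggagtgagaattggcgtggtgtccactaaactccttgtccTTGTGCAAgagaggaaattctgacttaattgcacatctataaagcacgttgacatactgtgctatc
Clec12a: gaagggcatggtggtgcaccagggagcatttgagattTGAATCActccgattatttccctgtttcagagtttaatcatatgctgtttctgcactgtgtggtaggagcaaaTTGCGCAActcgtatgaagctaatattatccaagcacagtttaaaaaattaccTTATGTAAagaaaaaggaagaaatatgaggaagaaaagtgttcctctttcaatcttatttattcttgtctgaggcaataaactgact
Clec5a: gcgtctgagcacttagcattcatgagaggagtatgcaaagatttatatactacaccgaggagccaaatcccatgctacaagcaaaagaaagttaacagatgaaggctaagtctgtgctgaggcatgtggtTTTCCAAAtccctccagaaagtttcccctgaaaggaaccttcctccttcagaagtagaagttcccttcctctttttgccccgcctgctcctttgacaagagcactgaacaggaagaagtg
The E-box CACGTG, to which MYC proteins bind with MAX, matched 0 of the 27 member windows and 7.15% of all 32851 windows. The looser E-box CANNTG, which contains CACGTG, matched 21 member windows and 72.3% of all. A PU.1 form, GAGGAAGT, matched 0 member windows and 3.2% of all. TTNNGNAA matched 14 member windows (51.9%) against 40.7% of all, TTGCGCAA matched 1, that of Clec12a, against 0.183%, and TGANTCA matched 6 (22.2%), those of Clec12a, Clec18a, Clec2e, Clec2g, Clec2h and Clec4a2, against 7.81%. The Clec4d stretch shows 3 matches to TTNNGNAA and the Clec4e stretch 2, while that of Clec5a shows 1. The TGANTCA matches of Clec12a, Clec18a and Clec2e had A or T as the middle base. All of these are letter matches within short windows and say nothing of binding.

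Expression was judged against the negative control sets of each array. Their median was 4.39 to 4.87 and their 95th percentile 7.15 to 8.0. A member counted as expressed when it lay above the 95th percentile on every array of at least 1 group. By this rule 13 members were expressed: Clec10a, Clec12a, Clec16a, Clec2d, Clec2f, Clec2g, Clec2i, Clec4a2, Clec4b2, Clec4d, Clec4e, Clec4n and Clec5a. Against the median of the negative controls 28 members passed, and against their 99th percentile 1 did. A member can pass through the group where it is high, as Clec4n, Clec2f and Clec2i did in Ctrl groups and Clec16a in Hom-NMyc, so the expressed set says nothing of the direction of change. Another 6 members were not expressed but changed in at least 1 comparison: Clec1b, Clec4a1, Clec4a3, Clec4a4, Clec4b1 and Clec9a. The last 13 were neither expressed nor changed: Clec11a, Clec12b, Clec14a, Clec18a, Clec1a, Clec2e, Clec2h, Clec2l, Clec2m, Clec3a, Clec3b, Clec4f and Clec4g, whose values lay between 3.30 and 7.03 on all arrays. These include the secreted growth factor Clec11a, the plasma protein tetranectin (Clec3b) and the Kupffer cell receptor Clec4f.

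With N-Myc, falls far outnumbered rises in the Clec family. The comparison of NMyc with Ctrl, averaged over the 3 genotypes, called 18 of 32 members at an adjusted p under 0.05 (limma with Benjamini-Hochberg adjustment over all probe sets tested). Of these, 17 fell and 1 rose. Over all probe sets tested, 33.6% were called, 15.5% fell and 18.2% rose, so falls were 53.1% of the members against 15.5% of the background. Without Hom-Ctrl replicate 1, which leaves 1 Hom-Ctrl array, Clec4a4 was lost and Clec5a was added as a rise. Clec12b, above the 95th percentile of the negative controls on 0 arrays, was added as a fall. The median difference was -0.37 over the members and -0.02 over all probe sets. On 12 of the 32 members (37.5%) all 6 NMyc arrays lay below all 8 Ctrl arrays, against 6.58% of all probe sets. The opposite order, all NMyc arrays above all Ctrl arrays, held for 0 members against 10.5% of all probe sets. By neighbourhood, all 9 members of the Clec4 block fell, with a median difference of -0.96, and 7 of 12 fell in the Clec2 to Clec1 block, with a median of -0.50. Of the 11 members elsewhere 1 fell (Clec10a) and 1 rose (Clec16a), with a median of 0.09. Neighbouring Clec genes are alike in sequence, so probe sets of a block may share part of their signal.

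**Figure D1:**
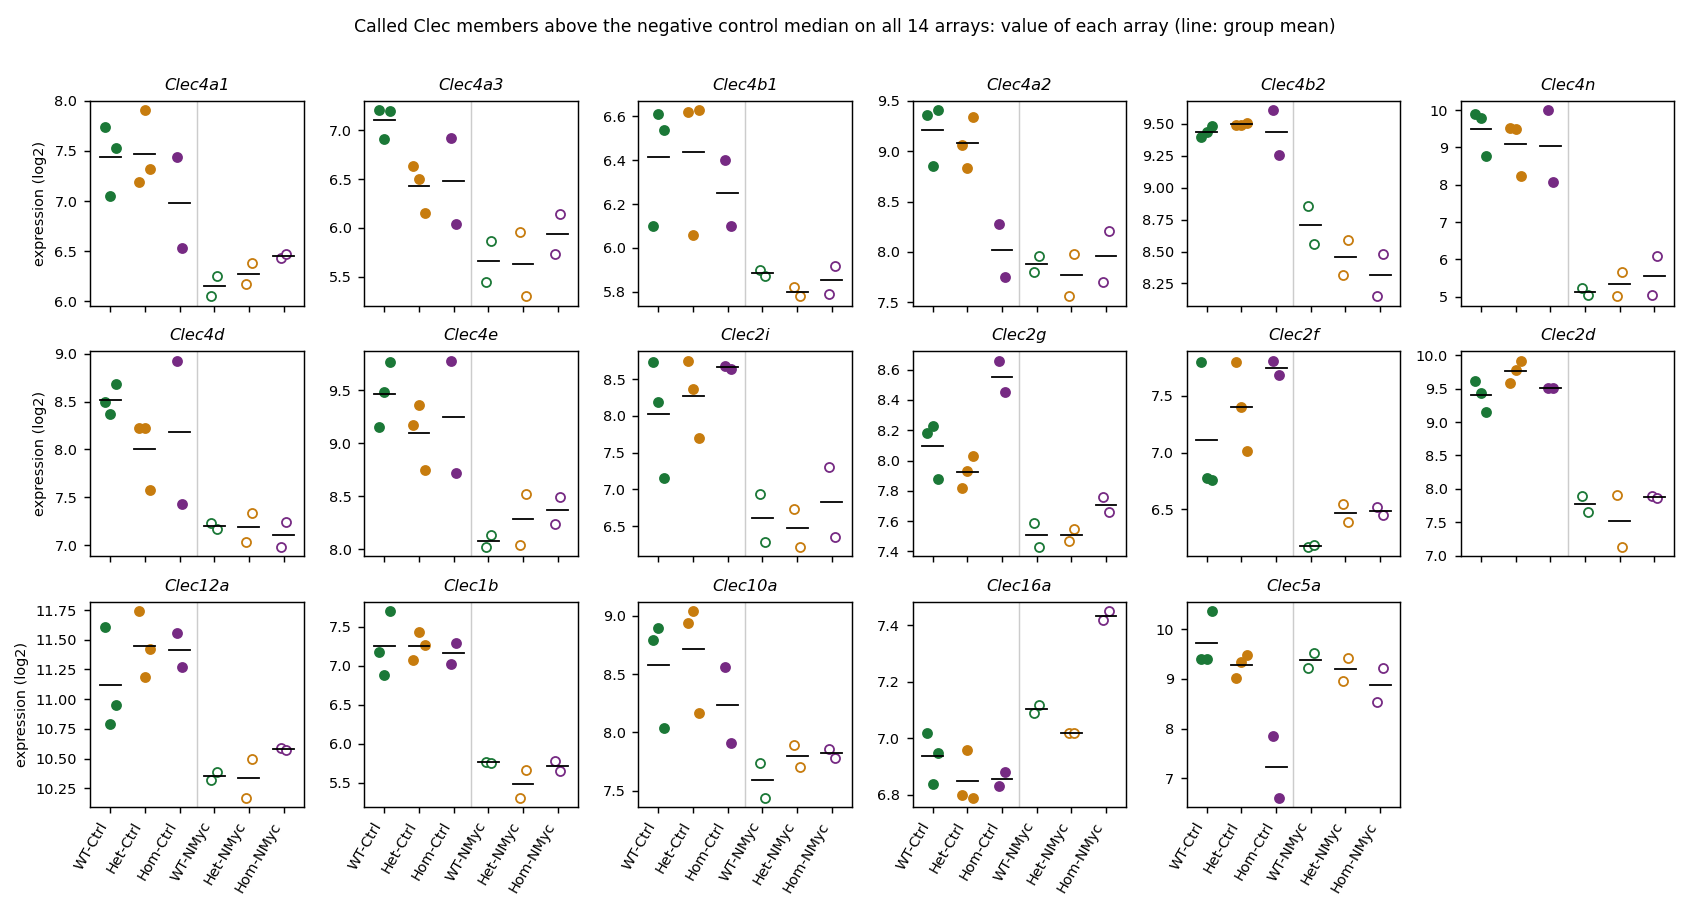
Log2 expression (y axis, a separate scale in each panel) on each of the 14 arrays for the 17 members that changed in at least 1 comparison and lay above the negative control median on every array, by group (x axis). Filled points are Ctrl arrays, open points NMyc arrays, and lines group means; Clec4n falls from 8.07 to 10.01 with Ctrl to 5.01 to 6.09 with NMyc, while Clec5a is low only on the 2 Hom-Ctrl arrays.

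The activating receptors of the Clec4 block include the member with the farthest fall. Dectin-2, encoded by Clec4n, recognises fungal mannans and signals through the Fc receptor gamma chain. Clec4n read 9.90, 9.79 and 8.77 in WT-Ctrl, 9.52, 9.50 and 8.23 in Het-Ctrl and 10.01 and 8.07 in Hom-Ctrl, against 5.22 and 5.05 in WT-NMyc, 5.01 and 5.66 in Het-NMyc and 5.03 and 6.09 in Hom-NMyc. The vectors did not overlap, and the Ctrl arrays themselves ran from 8.07 to 10.01, with replicate 3 of WT and Het and replicate 2 of Hom at the low end. The averaged difference was -3.86 (SE 0.31, limma adjusted p = 9.79e-08), the farthest from 0 among the 32 members. On the 5 pairs of NMyc and Ctrl groups within a code run it lay between -4.57 and -2.57. Clec4n was above the 95th percentile of the negative controls on 8 of 8 Ctrl arrays and on 0 of 6 NMyc arrays, so the fall is a bound, at least 3.7-fold when each NMyc array is put at that percentile.

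Mincle (Clec4e), which senses mycobacterial and damaged-cell glycolipids, and MCL (Clec4d), its partner on the cell surface, lie side by side and their upstream stretches are shown above. Clec4e read 9.15, 9.48 and 9.77 in WT-Ctrl, 9.17, 9.36 and 8.75 in Het-Ctrl and 9.78 and 8.72 in Hom-Ctrl, against 8.02 and 8.13, 8.04 and 8.52, and 8.24 and 8.49 in the NMyc groups in the order WT, Het and Hom. Clec4d read 8.50, 8.37 and 8.69, then 8.22, 8.22 and 7.58, then 8.93 and 7.43 in the Ctrl groups in the same order, and 7.23 and 7.17, 7.03 and 7.34, and 6.98 and 7.24 in the NMyc groups. For both genes every NMyc array lay below every Ctrl array, although Hom-Ctrl replicate 2 came close, at 7.43 for Clec4d against 7.34 for the nearest NMyc array. Clec4e fell by 1.03 (SE 0.16, adjusted p = 0.000101), which is 2.04-fold. Clec4d fell by 1.07 (SE 0.19, adjusted p = 0.00026); since it was above the 95th percentile on 2 of 6 NMyc arrays only, the bound is at least 1.86-fold.

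Clec4b2 and Clec4b1 are close relatives within the block. Clec4b2 read 9.40, 9.44 and 9.48 in WT-Ctrl, 9.49, 9.49 and 9.51 in Het-Ctrl and 9.61 and 9.26 in Hom-Ctrl, a narrow spread, and 8.86 and 8.56 in WT-NMyc, 8.32 and 8.59 in Het-NMyc and 8.15 and 8.48 in Hom-NMyc. It fell by 0.96 (SE 0.10, adjusted p = 9.44e-07), which is 1.95-fold. Clec4b1 read 6.10, 6.61 and 6.54, then 6.62, 6.06 and 6.63, then 6.40 and 6.10 in the Ctrl groups, and 5.90 and 5.87, 5.82 and 5.78, and 5.79 and 5.92 in the NMyc groups. Groups did not overlap by vector for either gene. Clec4b1 differed by -0.52 (SE 0.12, adjusted p = 0.00204), with every array under the 95th percentile of the negative controls, so no fold is given.

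The gene of the inhibitory receptor DCIR and relatives of it also lie in the block. Clec4a2, which encodes DCIR, read 9.36, 8.85 and 9.41 in WT-Ctrl, 9.06, 8.83 and 9.34 in Het-Ctrl, 8.28 and 7.75 in Hom-Ctrl, 7.80 and 7.96 in WT-NMyc, 7.56 and 7.98 in Het-NMyc and 7.70 and 8.21 in Hom-NMyc. The WT and Het groups did not overlap by vector. Of the Hom-Ctrl arrays, replicate 2 lay among the NMyc arrays and replicate 1 just above the highest of them. Its averaged difference of -0.90 (SE 0.14, adjusted p = 7.2e-05) therefore came from WT (-1.33) and Het (-1.31), and in Hom the difference was -0.06 and did not pass. Clec4a1, a DCIR relative, read 7.74, 7.05 and 7.53, then 7.19, 7.91 and 7.32, then 7.44 and 6.53 in the Ctrl groups and 6.05 and 6.25, 6.17 and 6.38, and 6.43 and 6.47 in the NMyc groups. It differed by -1.01 (SE 0.16, adjusted p = 8.99e-05), with no overlap by vector. Clec4a3 read 7.21, 6.91 and 7.20, then 6.63, 6.50 and 6.15, then 6.92 and 6.04 in the Ctrl groups and 5.45 and 5.87, 5.96 and 5.30, and 5.73 and 6.14 in the NMyc groups. Here Hom-Ctrl replicate 2 lay below Hom-NMyc replicate 2, and the difference was -0.93 (SE 0.15, adjusted p = 0.000158). Clec4a1 passed the 95th percentile of the negative controls on 2 of 8 Ctrl arrays and Clec4a3 on 0, so no fold is given for either.

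Clec4a4, known as DCIR2, and Clec9a, the receptor DNGR-1 by which cross-presenting dendritic cells sense dead cells, were called at the level of the background. Clec4a4 read 4.78, 4.39 and 4.42, then 4.25, 4.36 and 4.42, then 4.25 and 3.65 in the Ctrl groups and 3.77 and 3.99, 3.76 and 3.79, and 4.31 and 3.79 in the NMyc groups. Clec9a read 3.46, 3.90 and 3.68, then 3.87, 3.38 and 3.82, then 3.68 and 4.16 in the Ctrl groups and 3.34 and 3.65, 3.26 and 3.36, and 3.46 and 3.26 in the NMyc groups. For both, vectors overlapped and values lay near or under the negative control median, so the differences of -0.37 (adjusted p = 0.0221) and -0.38 (adjusted p = 0.0197) are differences between signals at background. Both calls were lost in some alternatives, as when WT-NMyc replicate 1 was left out.

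The Clec2 ligands formed the next group. Clec2d encodes Clr-b, a widely expressed ligand of the inhibitory NK receptor Klrb1b. Clec2d read 9.62, 9.43 and 9.15 in WT-Ctrl, 9.58, 9.78 and 9.92 in Het-Ctrl and 9.51 and 9.51 in Hom-Ctrl, against 7.90 and 7.66 in WT-NMyc, 7.91 and 7.13 in Het-NMyc and 7.90 and 7.87 in Hom-NMyc. The gap between the vectors was wider than the spread within either. Clec2d differed by -1.83 (SE 0.12, adjusted p = 2.22e-08), at least 3.5-fold with the 1 NMyc array under the 95th percentile put at that percentile, and passed in WT (-1.62), Het (-2.24) and Hom (-1.63).

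Clec2i encodes Clr-g, a ligand of the activating receptor Klrb1f. Clec2i read 8.73, 8.19 and 7.15, then 8.75, 8.36 and 7.70, then 8.68 and 8.64 in the Ctrl groups and 6.94 and 6.29, 6.74 and 6.22, and 7.31 and 6.35 in the NMyc groups. WT-Ctrl replicate 3 lay below Hom-NMyc replicate 1, and within each genotype the vectors did not overlap. The averaged difference was -1.68 (SE 0.24, adjusted p = 3.66e-05). Clec2i passed the 95th percentile on 1 of 6 NMyc arrays, which makes it at least 1.98-fold. Clec2f and Clec2g, further Clr ligands, fell as well. Clec2f read 7.80, 6.78 and 6.76, then 7.80, 7.40 and 7.01, then 7.81 and 7.68 in the Ctrl groups and 6.17 and 6.19, 6.55 and 6.39, and 6.52 and 6.45 in the NMyc groups. Clec2g read 8.18, 8.23 and 7.88, then 7.82, 7.93 and 8.03, then 8.66 and 8.45 in the Ctrl groups and 7.59 and 7.43, 7.47 and 7.55, and 7.76 and 7.66 in the NMyc groups. Neither overlapped by vector. Clec2f differed by -1.04 (SE 0.16, adjusted p = 7.61e-05), a bound of at least 1.07-fold, since 0 of 6 NMyc and 4 of 8 Ctrl arrays passed the 95th percentile. Clec2g fell by 0.62 (SE 0.09, adjusted p = 3.97e-05), at least 1.53-fold.

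In the same block lie MICL and CLEC-2. Clec12a encodes MICL, an inhibitory receptor of myeloid cells that binds uric acid crystals. Clec12a read 11.61, 10.79 and 10.95, then 11.74, 11.19 and 11.42, then 11.56 and 11.27 in the Ctrl groups and 10.32 and 10.39, 10.17 and 10.50, and 10.59 and 10.57 in the NMyc groups. It was the 1 member above the 99th percentile of the negative controls throughout a group, and it fell by 0.90 (SE 0.13, adjusted p = 4.72e-05), which is 1.87-fold, with no overlap by vector. Clec1b encodes CLEC-2, the platelet receptor for podoplanin. Clec1b read 7.18, 6.88 and 7.70, then 7.08, 7.43 and 7.27, then 7.03 and 7.30 in the Ctrl groups and 5.77 and 5.76, 5.31 and 5.66, and 5.78 and 5.65 in the NMyc groups. The difference was -1.57 (SE 0.12, adjusted p = 8.99e-08) without overlap, but only 1 of 8 Ctrl arrays passed the 95th percentile and no fold is given. Clec10a, the macrophage galactose lectin MGL1, lies outside both blocks. Clec10a read 8.79, 8.90 and 8.04, then 8.94, 9.04 and 8.17, then 8.56 and 7.91 in the Ctrl groups and 7.74 and 7.44, 7.89 and 7.70, and 7.86 and 7.78 in the NMyc groups. It fell by 0.78 (SE 0.17, adjusted p = 0.00156), which is 1.71-fold, although the closest arrays, Hom-Ctrl replicate 2 at 7.91 and Het-NMyc replicate 1 at 7.89, nearly met.

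The 1 member that rose, Clec16a, is no classical lectin receptor: its product acts inside the cell in endosome traffic and mitophagy. Clec16a read 7.02, 6.84 and 6.95, then 6.80, 6.96 and 6.79, then 6.83 and 6.88 in the Ctrl groups and 7.09 and 7.12, 7.02 and 7.02, and 7.42 and 7.45 in the NMyc groups. The Hom-NMyc arrays stood above all others and were the only 2 above the 95th percentile of the negative controls. Its averaged difference was 0.31 (SE 0.08, adjusted p = 0.00509), of which WT and Het did not pass and Hom did (0.58, SE 0.14, adjusted p = 0.00951). Without Hom-Ctrl replicate 1 the difference in Hom was 0.55 (adjusted p = 0.0589) and no longer passed. The test of a difference between the effects in Hom and WT gave 0.41 (adjusted p = 0.585).

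The directions were also read within code runs. In runs 2 and 3, which hold both vectors, 5 pairs of NMyc and Ctrl arrays share genotype and run. Of the 17 members that fell, 16 were lower with NMyc in all 5 pairs. The exception was Clec4a4, lower in 4 of 5. These arrays also entered the fit that called the members, so the pairs are no separate support. The same count over all probe sets was not taken. The gaps were small in the Hom pair of run 2 for several members, where Hom-Ctrl replicate 2 was low: -0.05 for Clec10a and Clec4a2 and -0.10 for Clec4a1.

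**Figure D2:**
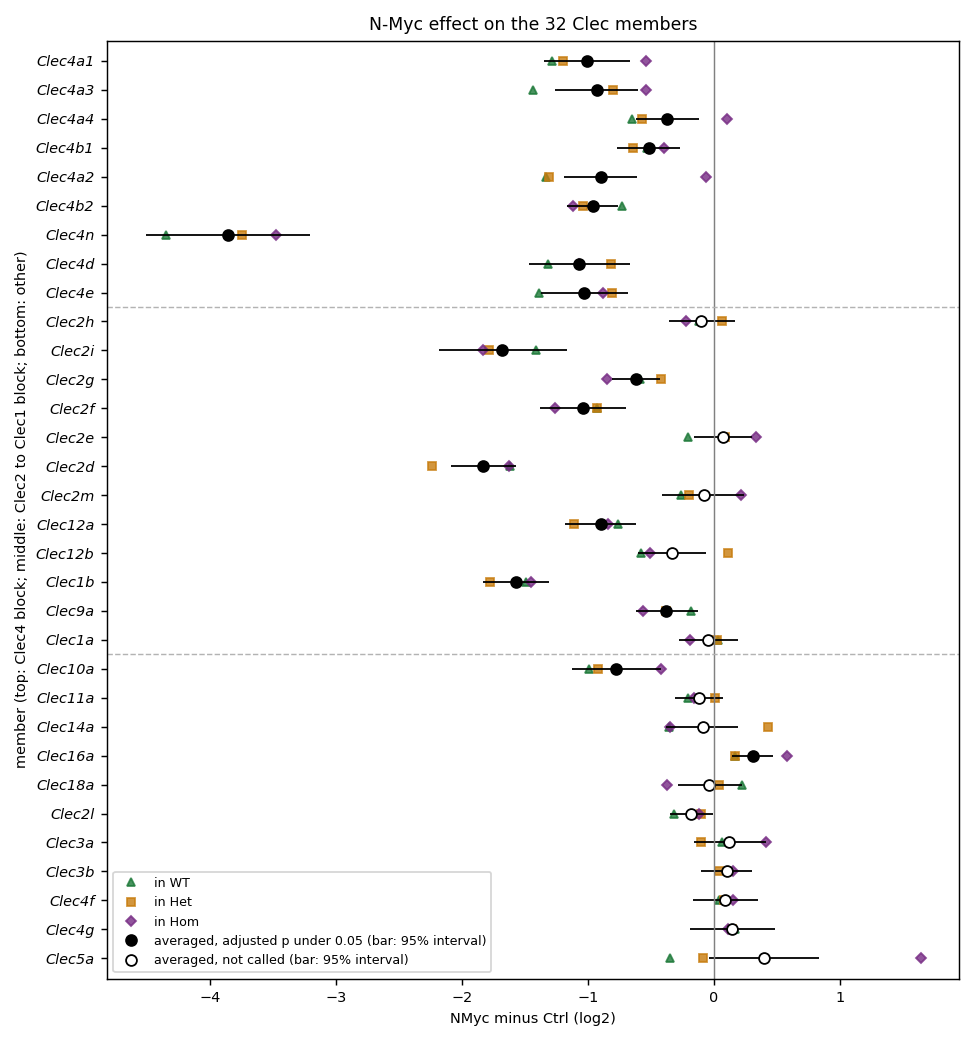
NMyc minus Ctrl in log2 units (x axis) for each of the 32 members (y axis, in chromosomal order within the 2 blocks, then the rest). Circles are the average over genotypes with its 95% interval, filled where the adjusted p was under 0.05; small symbols are the difference in WT, Het and Hom. All 9 members of the Clec4 block lie left of 0, from -3.86 for Clec4n to -0.37 for Clec4a4, and Clec5a shows 1.64 in Hom beside -0.35 in WT.

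Within single genotypes the same receptors made up most calls. In WT, 15 members fell and 0 rose, where 19.1% of all probe sets were called, 9.05% fell and 10.1% rose. In Het, 13 fell and 0 rose, where 19.1% of all were called, 8% fell and 11.1% rose. In Hom, 9 fell and 2 rose, where 17.7% of all were called, 7.01% fell and 10.7% rose. The 7 that fell in all 3 genotypes were Clec12a, Clec1b, Clec2d, Clec2f, Clec2i, Clec4b2 and Clec4n. The share of all probe sets that fell in all 3 was not computed, and it cannot exceed the 7.01% that fell in Hom. In the Clec4 block the calls numbered 8 of 9 in WT, 7 of 9 in Het and 3 of 9 in Hom (Clec4b2, Clec4d and Clec4n, of which Clec4d was lost in 13 of 22 alternative fits), while in the Clec2 to Clec1 block they numbered 6, 5 and 6 of 12. These counts do not show that the effect differed between genotypes. The test of that difference, the effect in Hom minus the effect in WT, called 0 members (5 at an unadjusted p under 0.05) and 0.0811% of all probe sets (0.0721% higher in Hom, 0.00901% lower). For Het minus WT it called 0 members (3 at an unadjusted p under 0.05) and 0% of all probe sets. Without Hom-Ctrl replicate 1 the Hom comparison called 6 members: Clec1b, Clec2d, Clec2g, Clec4b2 and Clec4n fell and Clec5a rose. The counts also fell without replicate 2 of WT-NMyc or of Hom-NMyc, which leaves 1 array in that group. In Het, leaving out replicate 1 of Het-Ctrl gave 8 calls. The count in Het fell too without replicate 1 or 2 of Het-NMyc, which again leaves 1 array. The share of all probe sets called in these alternative fits is not given here. Whether the counts moved more than the background was not tested.

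Few members were called between Polg genotypes. With the Ctrl vector, Hom minus WT called 2 of 32 members, Clec5a and Clec4a2, and both fell. Over all probe sets 3.91% were called, 1.88% fell and 2.03% rose. At an unadjusted limma p under 0.05 there were 8 members. By group means all 9 members of the Clec4 block were lower in Hom-Ctrl than in WT-Ctrl, with a median difference of -0.45. The replicates differed in this. Within run 2 every member of the block was lower in Hom-Ctrl. Within run 1 Clec4b1 (0.30), Clec4b2 (0.21), Clec4d (0.43), Clec4e (0.63) and Clec4n (0.11) were higher and the rest lower. Against Het-Ctrl 6 members of the block were lower and 3 higher, with a median of -0.06. In the Clec2 to Clec1 block 3 of 12 were lower and 9 higher, with a median of 0.15. With 2 Hom-Ctrl arrays, smaller differences could be missed. MDL-1, encoded by Clec5a, is an activating receptor of monocytes and neutrophils that signals through DAP12 and DAP10. Clec5a read 9.41, 9.41 and 10.36 in WT-Ctrl, 9.02, 9.34 and 9.49 in Het-Ctrl and 7.86 and 6.61 in Hom-Ctrl. Both Hom-Ctrl arrays lay below all 12 others. Clec5a fell by 2.49 (SE 0.34, adjusted p = 0.00157) from WT, and since 1 of the 2 Hom-Ctrl arrays was under the 95th percentile of the negative controls, the bound is at least 4.02-fold with that array put at the percentile. The difference was -1.55 within run 1 and -2.80 within run 2; without Hom-Ctrl replicate 1 it was -3.11 (adjusted p = 0.000866), and without Hom-Ctrl replicate 2 it was -1.87 (adjusted p = 0.0405). Against Het the difference was -2.05 (SE 0.34, adjusted p = 0.00643). That call held without Hom-Ctrl replicate 1 (-2.67, adjusted p = 0.00394) and was lost without Hom-Ctrl replicate 2 (adjusted p = 0.131), whereas the fall from WT passed in each of the 22 alternative fits.

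Clec4a2, whose arrays are given above, fell by 1.19 from WT-Ctrl to Hom-Ctrl (SE 0.23, adjusted p = 0.0104), which is 2.28-fold. The difference was -1.08 in run 1 and -1.10 in run 2. It passed without Hom-Ctrl replicate 1 (-1.46, adjusted p = 0.0136) but not without Hom-Ctrl replicate 2 (-0.92, adjusted p = 0.165). Against Het-Ctrl it fell by 1.06 (SE 0.23, adjusted p = 0.0258), a call kept without Hom-Ctrl replicate 1 (-1.33, adjusted p = 0.0256) and lost in 6 of 22 alternative fits. Hom minus Het with Ctrl called 3 members (2 fell and 1 rose), where 2.4% of all probe sets were called, 1.06% fell and 1.34% rose. The third was Clec2g, which rose by 0.63 (SE 0.15, adjusted p = 0.0384) and was lost in 17 of the 22 alternative fits, that without Hom-Ctrl replicate 1 among them. Without Hom-Ctrl replicate 1, which leaves 1 Hom-Ctrl array, Hom minus WT was -1.09 for Clec4d and -0.88 for Clec4a4. Clec4a4 lay above the negative control median on 1 array only, so its difference is one between signals at background. Without WT-Ctrl replicate 1, Hom minus WT called 4 members, adding Clec2e as a fall and Clec2f as a rise. Clec2e lay above the negative control median on 0 arrays, so its call is a difference between signals at background. The share of all probe sets called in that fit is not given here. Het minus WT with Ctrl called 0 members (3 at an unadjusted p under 0.05) and 0% of all probe sets.

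**Figure D3:**
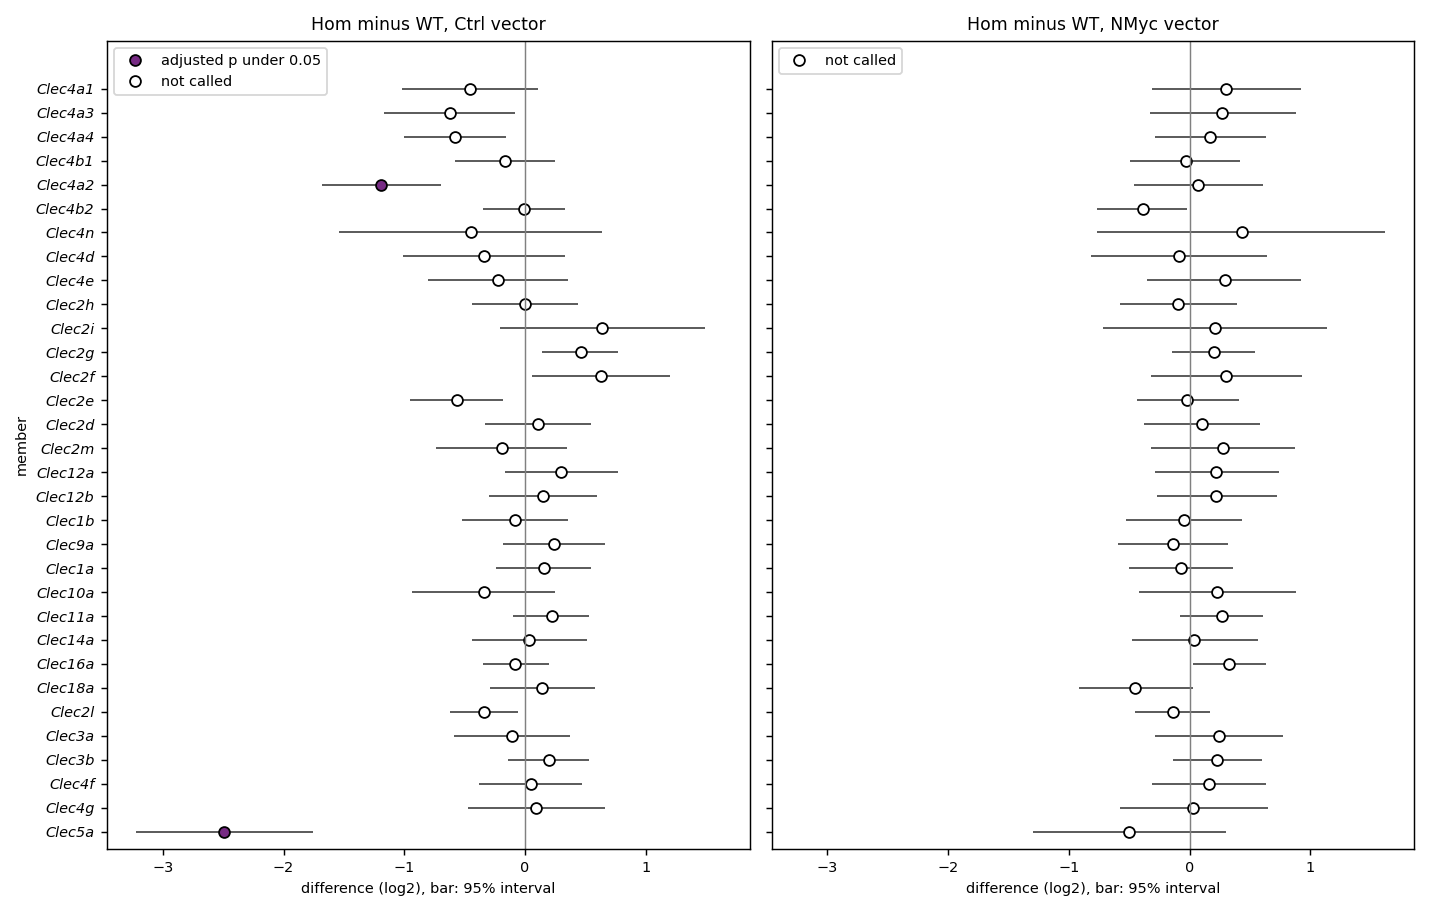
Hom minus WT in log2 units (x axis) for each of the 32 members (y axis) with the Ctrl vector (left) and the NMyc vector (right). Points are limma differences with 95% intervals, filled where the adjusted p was under 0.05. Clec5a (-2.49) and Clec4a2 (-1.19) are the 2 filled points, both with Ctrl, and 0 are filled with NMyc.

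Under N-Myc the genotypes could not be told apart in any member. Hom minus WT, Het minus WT and Hom minus Het called 0 members and 0% of all probe sets by limma, with 2, 1 and 1 members at an unadjusted p under 0.05. Clec5a read 9.22 and 9.53 in WT-NMyc, 8.95 and 9.43 in Het-NMyc and 8.53 and 9.22 in Hom-NMyc, so the low level of the Hom-Ctrl arrays was not seen on the Hom-NMyc arrays. Hom minus WT was -0.50 there, with a 95% interval from -1.30 to 0.30. For Clec4a2 it was 0.07, with an interval from -0.46 to 0.61. NMyc minus Ctrl for Clec5a was -0.35 in WT and -0.09 in Het, which did not pass, and 1.64 in Hom (SE 0.38, adjusted p = 0.00627). The rise in Hom was lost without Hom-Ctrl replicate 2 or without Hom-NMyc replicate 2, and was 2.26 (adjusted p = 0.00208) without Hom-Ctrl replicate 1. The difference between the effects in Hom and WT was 1.99 for Clec5a (SE 0.51, adjusted p = 0.189) and 1.26 for Clec4a2 (SE 0.34, adjusted p = 0.22), and neither passed over all probe sets. Without Hom-Ctrl replicate 1 the value for Clec5a was 2.62 (adjusted p = 0.0484) and that for Clec4a2 was 1.53 (adjusted p = 0.174).

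The partners of these receptors were read from lists chosen with earlier results of these data known. The counts are for NMyc minus Ctrl averaged over genotypes, and no set test was run. In that comparison 33.6% of all probe sets were called, 15.5% fell and 18.2% rose. Of 4 genes on the adaptor list, 3 fell with N-Myc and 0 rose. The falls were Tyrobp (DAP12, difference -1.36, limma adjusted p = 1.87e-08), Hcst (DAP10, -0.71) and Fcer1g (-0.59). Fcgr1, a receptor listed because it shares the gamma chain, differed by 0.34 and did not pass. Of 10 kinases and phosphatases measured, 5 fell and 0 rose, among them Fgr (-1.19), Prkcd (-0.60), Syk (-0.61) and Pik3cd (-0.57). The relay from Card9 to NF-kB, NFAT and MAPK held 6 falls and 1 rise among 16, with Irf1 falling by 0.78 and Map3k7 rising by 0.38. Card9 itself differed by -0.12 and did not pass. Of 14 output genes that Clec signalling is known to induce in myeloid cells, 11 fell and 0 rose, with a median of -1.43. The differences were -2.63 for Il1b, -2.51 for Il6, -2.44 for Ccl4 and -1.90 for Ptgs2. Many other pathways induce these genes too.

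Among 9 partner ligands and receptors, 4 fell and 1 rose. Klrb1f, the receptor for Clec2i, fell by 2.63 (adjusted p = 3.47e-06), and Pdpn, the ligand of Clec1b, fell by 0.96. S100a9 (-0.54) and S100a8 (-0.45) were the other falls, and Sap130, whose product Mincle senses, rose by 0.24, a call lost without Hom-Ctrl replicate 1. Klrb1b, the receptor for Clec2d, differed by -0.34 (adjusted p = 0.0633) and lay above the negative control median on 1 array only. Of 28 other C-type lectin-like receptors, 9 fell and 0 rose, where 33.6% of all probe sets were called, 15.5% fell and 18.2% rose. The falls included the selectin Selp (-3.13), the mannose receptor Mrc1 (-2.46), Cd69 (-2.06) and Cd93 (-1.77). The list's median was -0.04, against -0.02 over all probe sets.

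In the Hom minus WT comparison with Ctrl, the 6 pathway lists together held 7 calls among 81 genes (8.64%), against 3.91% of all probe sets. Tyrobp differed by 0.26 and Hcst by -0.44, and neither passed. Fcgr1, a receptor that shares the gamma chain and no adaptor itself, fell by 1.28. It was the 1 call among the 4 genes of the adaptor list. Fgr fell by 1.08 and Pik3cd rose by 0.89 among the kinases, and the relay list held 0 calls. Among output genes Il1b rose by 1.25 and Ccl2 fell by 1.14, and among other lectin-like receptors Mrc1 fell by 2.81 and Cd72 rose by 1.09. With Hom-Ctrl replicate 1 left out, Fgr (-1.33), Pik3cd (1.04), Ccl2 (-1.86), Mrc1 (-3.71) and Cd72 (1.63) still passed. Fcgr1 (-1.12, adjusted p = 0.066) and Il1b (0.72, adjusted p = 0.33) did not, and Malt1 (-0.77) and Thbd (-0.90) were called in addition.

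**Figure D4:**
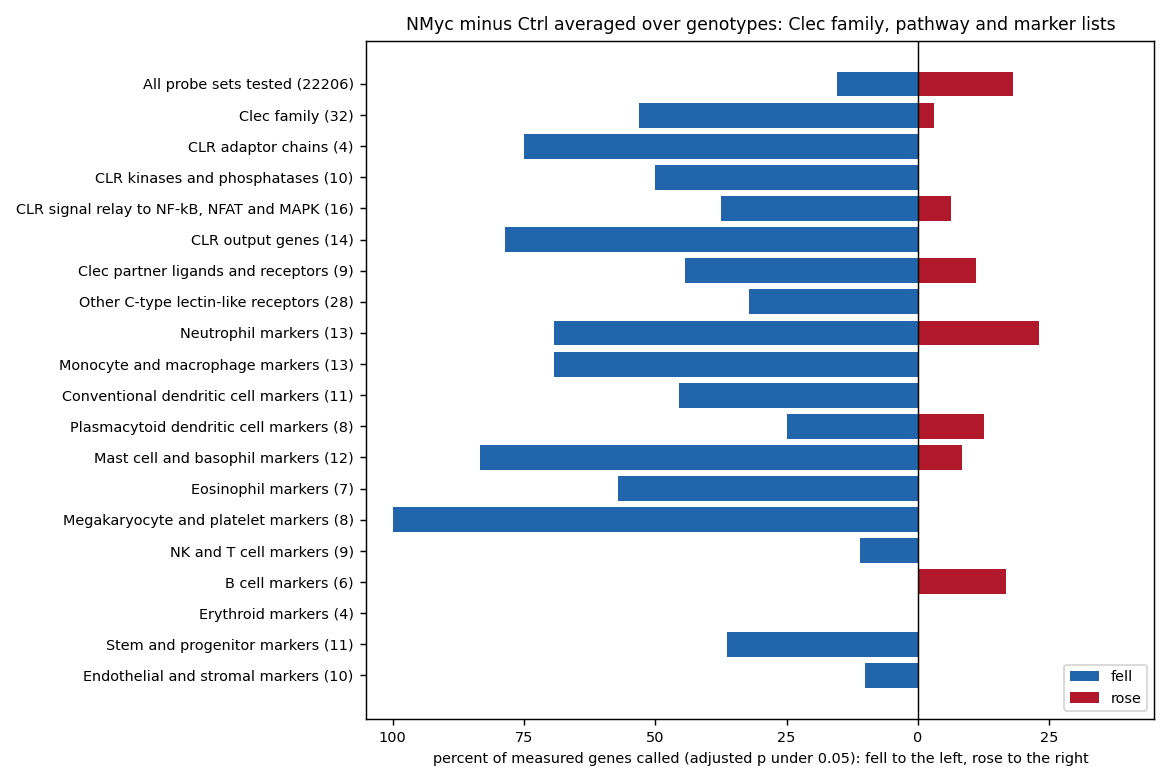
Percent of measured genes called in NMyc minus Ctrl averaged over genotypes (x axis, falls drawn to the left of 0 and rises to the right) for all probe sets, the Clec family and the pathway and marker lists (y axis, number measured in brackets). Of the Clec family 53.1% fell, against 15.5% of all probe sets; of the monocyte and macrophage markers 9 of 13 fell, and of the megakaryocyte and platelet markers 8 of 8.

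Markers of the cells that carry these receptors moved in the comparison of NMyc with Ctrl averaged over genotypes, where 15.5% of all probe sets fell and 18.2% rose. In bulk RNA, fewer cells of a type and less RNA in each cell cannot be told apart. Of 13 monocyte and macrophage markers 9 fell and 0 rose (median -0.98). The list's mean level was 8.63 to 9.37 over the Ctrl arrays and 7.84 to 7.95 over the NMyc arrays, with all 13 above the negative control median on every array. Of 13 neutrophil markers 9 fell and 3 rose. The neutrophil mean was 11.65 to 11.82 in WT-Ctrl, 11.70 to 11.88 in Het-Ctrl, 11.20 to 11.38 in Hom-Ctrl and 10.56 to 10.75 over the NMyc arrays. The 3 that rose, named after their values were seen, were Elane, Mpo and Prtn3, primary granule proteins made early in neutrophil development. Ctsg, a further primary granule gene on the list, was not among the rises, and S100a8 and S100a9 were among the falls. All 8 megakaryocyte and platelet markers fell (median -2.00), and their mean went from 8.77 to 9.55 over the Ctrl arrays to 6.62 to 6.93 over the NMyc arrays, beside Clec1b. Of 12 mast cell and basophil markers 10 fell and 1 rose, and of 7 eosinophil markers 4 fell. Among 11 conventional dendritic cell markers 5 fell, and Xcr1, which marks the cells known for Clec9a, lay above the negative control median on 0 arrays. Plasmacytoid dendritic cell markers held 2 falls and 1 rise among 8, stem and progenitor markers 4 falls among 11, NK and T cell markers 1 fall among 9, B cell markers 1 rise among 6, erythroid markers 0 calls among 4, and endothelial and stromal markers 1 fall among 10. The part of cell makeup in the results on the Clec members was not tested.

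For Clec5a and Clec4a2 in Hom-Ctrl, the marker lists read as follows against WT-Ctrl. Over all probe sets 3.91% were called in this comparison, 1.88% fell and 2.03% rose. Of 13 neutrophil markers 3 fell and 0 rose: Ltf (-1.42), Mmp8 (-1.13) and Retnlg (-1.41). Of 13 monocyte and macrophage markers 1 fell, Fcgr1, and the list's mean was 8.63 to 9.05 in Hom-Ctrl against 9.11 to 9.37 in WT-Ctrl. Mast cell and basophil markers held 3 rises (Ms4a2, Fcer1a and Gata2) among 12, with Gata2 also the 1 rise among the 11 stem and progenitor markers. Siglecf, 1 of 7 eosinophil markers, fell by 1.05 and Bst2, 1 of 8 plasmacytoid dendritic cell markers, rose by 1.30. The megakaryocyte, conventional dendritic, NK and T, B, erythroid and endothelial lists held 0 calls. When Hom-Ctrl replicate 1 was left out, Ltf (-1.68), Mmp8 (-1.44), Retnlg (-1.77), Siglecf (-0.81), Bst2 (1.20), Ms4a2 (1.40) and Fcer1a (0.85) still passed. Fcgr1 and Gata2 (0.72, adjusted p = 0.0714) did not, and the monocyte marker Csf1r (-1.28) and the eosinophil marker Ear6 (-1.43) were called as falls. The part of these shifts in the fall of Clec5a and Clec4a2 was not tested.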

How the data were processed

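RNA of 14 samples was hybridised to Affymetrix whole-transcript arrays, 1 array per sample. The table that the authors deposited has 1 log2 value for each probe set on each array, between 2.24 and 13.5. These bounds are what shows the log2 scale. The submitters' processing notes name Affymetrix Expression Console, with its version, summary method and normalization not given in the sources used here. If the arrays were scaled to a common level before deposit, a change shared by most transcripts would not be seen. No further scaling was applied. The number of arrays limits the precision.

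The table holds 28846 probe sets. Control sets, recognised by their identifiers, were left out (6640), which left 22206. Of these 19572 paired with 1 symbol in the platform annotation, 0 with several and 2634 with none. Each of the 32 Clec symbols had 1 probe set. The members, lists, tests and the rule for naming genes were chosen with earlier results of these data known. Members expressed or called in any comparison were given on every array with their values, members that were neither by their range, and from each list up to 4 called genes with the smallest p in the averaged or the Hom minus WT comparison with Ctrl, besides those whose role was needed (Card9, Tyrobp, Hcst, Fcgr1, Klrb1b and Xcr1, chosen after their values were seen).

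Group means were fitted to all 14 arrays with limma 3.58.1 in R 4.3.3 (lmFit and eBayes), 12 differences were tested on both sides, and p-values were adjusted by Benjamini-Hochberg over all 22206 probe sets. Adjusted p-values in the text are limma's. In simulated data with independent noise, the averaged comparison recovered most of the larger N-Myc changes put in. The smaller changes were not held to a limit, and no change by genotype was simulated. Where an array of the lower group lay under the 95th percentile of that array's negative controls, the percentile took its place and the ratio is given as at least that fold; these bounds were added after the values were seen.

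Replicate numbers were checked as pairs by correlating deviations from group means across probe sets. Same-numbered arrays of WT-Ctrl and Het-Ctrl correlated at 0.235, 0.266 and 0.249. Hom-Ctrl replicates 1 and 2 correlated at 0.194 and 0.026 with same-numbered WT-Ctrl arrays and at 0.142 and 0.095 with Het-Ctrl arrays. The main fit had no block in any comparison. For Het minus WT with Ctrl, the alternative fit with a replicate block also called 0 members. Same-numbered Ctrl and NMyc arrays of a genotype come from different code runs and were not taken as pairs. Alternatives were leaving out each array, a replicate block, a code-run block, code runs 2 and 3 alone, quantile normalization, a filter on dim probe sets, a trended robust prior, leaving out AFFX control sets only, and fits on the compared groups alone. Gene lists without Hom-Ctrl replicate 1 were added after seeing the data. No member had another probe set, so that alternative gave no value. Promoter windows came from RefSeq (GRCm38.p6). Protein sequences were not used here.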

Additional observations from a re-analysis of the deposited data

Results flagged for a closer look

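Clec14a was singled out because its arrays moved in opposite directions in 2 genotypes: every Het-NMyc array lay above every Het-Ctrl array and every Hom-NMyc array below every Hom-Ctrl array. It read 4.45, 4.41 and 4.29 in Het-Ctrl and 4.77 and 4.86 in Het-NMyc (difference 0.43), and 5.10 and 4.63 in Hom-Ctrl and 4.60 and 4.42 in Hom-NMyc (difference -0.35). These values lie near the median of the negative control sets, neither difference passed, and the difference between the 2 effects was not tested.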

How the results depend on the processing

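Over 22 alternative fits, 35 of 62 calls of members were kept under every alternative and 0 called differences changed sign. Of the 18 calls averaged over genotypes 16 were kept throughout; Clec4a4 was lost in 6 fits and Clec9a in 4. With code runs 2 and 3 alone, Hom minus WT with Ctrl called 4 members and Hom minus Het with Ctrl called 1, and with AFFX control sets alone left out Hom minus Het with Ctrl also called 1. The count of expressed members was 28 against the median of the negative controls and 1 against their 99th percentile. Leaving out 1 array at a time gave 16 to 20 calls averaged, 7 to 16 in WT, 7 to 15 in Het, 5 to 13 in Hom, 1 to 4 for Hom minus WT with Ctrl, 0 to 3 for Hom minus Het with Ctrl, and 0 to 1 for the effect in Hom minus that in WT. Without Hom-Ctrl replicate 2, Hom minus WT called 1 and Hom minus Het 0; without Het-Ctrl replicate 1 or 3, Hom minus Het called 1. A replicate block, which the labels support for no NMyc comparison, gave 19 calls averaged, 16 in WT, 11 in Het, 10 in Hom, 2 for Hom minus WT and 2 for Hom minus Het with Ctrl. Differences that did not pass and changed sign were Clec4a2 in Hom (-0.06), which became 0.20 without Hom-Ctrl replicate 1, 0.19 without Hom-NMyc replicate 1 and 0.20 with code runs 2 and 3 alone, and Clec5a in Het (-0.09), which became 0.15 without Het-NMyc replicate 1, 0.01 without Het-Ctrl replicate 3 and 0.11 with the replicate block. Leaving out 1 array at a time, the first ranged from -0.33 to 0.20 and the second from -0.34 to 0.15. The cause of these shifts was not tested. Fits that leave arrays out also rest on fewer arrays. The share of all probe sets called in each alternative fit is not given here, so the counts of calls above were not set against the background. Groups of 2 arrays and signals near background limit what can be said of the dimmer members.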
